A study of Mus musculus with 8 samples.

Results

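The bone morphogenetic protein (BMP) pathway was examined in RNA from libraries labelled as LRP1 knockout and Wildtype, through 10 genes chosen by name among the 22520 in the deposited table. They are the ligands Bmp2, Bmp4 and Bmp6, the extracellular modulator Bmper, the receptor Bmpr2, the target genes Id1, Id2 and Id3, and the inhibitory SMADs Smad6 and Smad7. All 10 were found in the table, each with a value in all 8 libraries, and 9 passed the filter on low values, Bmp2 being the exception.

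The RNA sequencing compared 4 libraries labelled LRP1 KO with 4 labelled Wildtype (WT), all from C57BL/6 mice at postnatal day 14, to ask which genes differ in microvascular cells that lack LRP1. The labels call every library a mix of cells from heart, liver and lung. According to the study's methods, endothelial cells were enriched on magnetic beads coated with an antibody to PECAM-1, and the knockout came from the cross of a floxed LRP1 allele with Cdh5-CreER, an inducible Cre recombinase under the promoter of the endothelial cadherin gene. By the study's description, both groups carried the floxed allele on both chromosomes (LRP1 f/f), the LRP1 KO mice with Cdh5-CreER+/- and the WT littermates with Cdh5-CreER-/-. The study describes sequencing of liver cells apart from heart and lung cells, whereas the labels here name a mix of these organs. By this design, a floxed gene is meant to be lost only in cells in which the Cdh5 promoter was active when Cre was induced. The labels do not say whether the 4 libraries of a group came from separate mice, so the p-values below measure the spread between libraries, which may be partly technical.

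BMP ligands bind complexes of type I and type II serine/threonine kinase receptors, which phosphorylate SMAD1, SMAD5 and SMAD9. With SMAD4 these enter the nucleus and switch on target genes, among them the ID genes, whose proteins block basic helix-loop-helix transcription factors, and Smad6 and Smad7, whose proteins feed back to inhibit the receptors. LRP1 is an endocytic receptor that in endothelium takes up BMPER together with BMP4, and BMPER itself can either dampen or favor BMP4 signaling.

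Values are FPKM (fragments counted relative to transcript length and to library size) and had, to judge by the values, been quantile normalized by the authors, so that all libraries share nearly the same distribution. The sums ran from 503571 to 504112 and the sequencing depth is unknown. Differences are log2 fold changes of log2(FPKM + 1), LRP1 KO minus WT, which are smaller than the ratio of FPKM for low genes. They come from a limma fit to all 11389 tested genes with Benjamini-Hochberg adjustment, and a gene was called at an adjusted p under 0.05. Lrp1, the targeted gene, had 103 to 140 FPKM in WT and 2.79 to 7.72 in LRP1 KO, 3.99% of the WT mean. The marker lists went partly against the endothelial label. The 16 endothelial markers were all present, but their summed level was 115 to 137 FPKM in WT and 523, 290, 360 and 118 in LRP1 KO libraries 1 to 4, whereas 11 fibroblast markers summed to 2626 to 3772 in WT and 2208 to 3432 in LRP1 KO. The sum of 12 macrophage markers was 90.8 to 115 in WT and 383, 575, 238 and 520 in LRP1 KO, and that of 9 mural markers 670 to 836 and 1039 to 1627. Most of the mural sum came from Acta2 and Tagln (means of 360 and 298 FPKM in WT, 711 and 549 in LRP1 KO). Only Pdgfrb and Rgs5 among the mural markers had lower means in LRP1 KO. Among the macrophage markers only Cd14 did (37.3 FPKM in WT and 26.9 in LRP1 KO). Hepatocyte markers summed to at most 1.42 and lung epithelium markers to at most 3.62. The 4 cardiomyocyte markers summed to 99.5 to 154 FPKM in WT and 87.0 to 121 in LRP1 KO, nearly all of it from Tnnt2 (81.6 to 152 FPKM), while Myh6 and Actc1 had at most 1.51 and 1.97. The cells are therefore called by their group names here. Lrp1 was low in every LRP1 KO library, also in library 4 (7.72 FPKM), while fibroblast markers far exceeded endothelial ones in all libraries. In which cells Lrp1 was lost was not tested. In such bulk RNA, fewer cells of a type and less RNA per cell cannot be told apart. LRP1 KO library 4 stood apart from the other LRP1 KO libraries, with endothelial markers at the WT level and a score of 0.102 on the first principal component (60.8% of the variance), against 17.2 to 27.3 in the other LRP1 KO libraries and -24.1 to -12.9 in WT. Results that change without it are given both ways.

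Of the 9 tested members, 3 were called higher in LRP1 KO (Bmper, Id2 and Smad7), and 0 were called lower by limma. Over all tested genes 13.6% were called, 6.27% of them higher and 7.31% lower as shares of the tested genes. Among the members not called, Id1, Id3 and Smad6 had unadjusted p-values under 0.05 in the same limma fit, Id1 and Id3 with lower estimates. Without LRP1 KO library 4, the same fit called 5 members higher and 2 lower, where it called 26.2% of all tested genes. The groups did not overlap for Bmper, Id2 and Smad7, all with LRP1 KO above WT, where 19.6% of tested genes had groups that did not overlap, 8.84% with LRP1 KO above WT. The median log2 fold change of the 9 members was 0.37, against -0.01 over all tested genes. None of the members reached the 2-fold difference (absolute log2 fold change of 1) that 1.62% of all tested genes reached with a call.

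**Figure D1:**
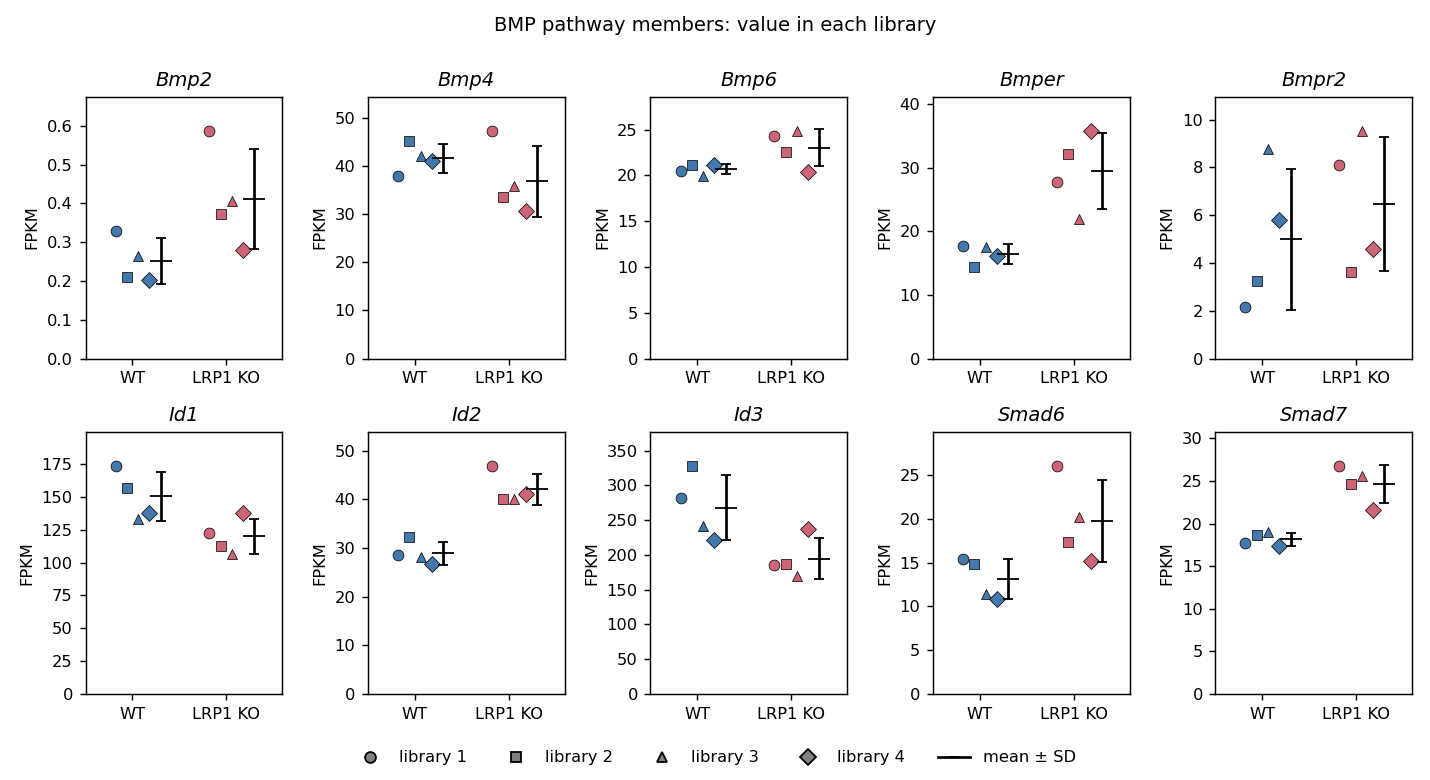
Value of each of the 10 members in FPKM (vertical axes from 0, one scale per gene) in the 4 WT (blue) and 4 LRP1 KO (red) libraries, with the symbol giving the library number and the bar the group mean ± SD. Bmper, Id2 and Smad7 lie higher in every LRP1 KO library than in any WT library, and in Id1 and Id3 LRP1 KO library 4 (diamond) lies within the WT range.

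Bmper encodes a secreted protein with von Willebrand factor C domains that binds BMPs, and it had the largest difference of the members. It lies at chr9:23223076-23485200 (+ strand, GRCm38). In libraries 1 to 4 the value was 17.8, 14.4, 17.5 and 16.1 FPKM for WT and 27.8, 32.2, 22.0 and 35.8 for LRP1 KO. The lowest LRP1 KO value exceeded the highest WT value, and library 4, which stood apart in other respects, was the highest. The group means were 16.4 ± 1.57 and 29.5 ± 5.98 FPKM (SD, n = 4 each), so that LRP1 KO was at 179% of WT. The log2 fold change was 0.79 (SE 0.14, 95% interval 0.48 to 1.10), with an adjusted p of 0.00978 by limma. The call was kept when any 1 library was left out. Within LRP1 KO, Bmper moved with the macrophage markers, of which 9 of 11 tested were called higher. There, libraries 2 and 4 were the highest and library 3 the lowest by both Bmper and the macrophage marker sum. In WT Bmper did not move with these markers: library 1 had the highest Bmper with the lowest sum (90.8 FPKM), and library 2 the lowest Bmper with a sum of 112. With the mean level of those markers as a term in the fit, the log2 fold change of Bmper was 0.11 and its adjusted p 0.836 by limma, a fit in which the median SE over all genes rose from 0.0880 to 0.222. With the endothelial markers instead, it was 1.03 with an adjusted p of 0.0193, and Bmper was the 1 member still called. The part of such cells in the difference was not tested further.

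Bmp4, the partner ligand of Bmper, did not pass the test. Bmp4 (chr14:46383520-46390669, - strand), a ligand made by endothelial and mesenchymal cells, had 38.0, 45.3, 42.2 and 41.1 FPKM in WT and 47.4, 33.6, 35.9 and 30.6 in LRP1 KO. LRP1 KO libraries 2 to 4 were below the lowest WT library and library 1 was the highest of all 8, so the groups overlapped. The means were 41.6 ± 3.01 and 36.9 ± 7.33 FPKM, and the log2 fold change of -0.19 (SE 0.12, 95% interval -0.46 to 0.09) had an adjusted p of 0.305 by limma. It was -0.31 (adjusted p = 0.0677) without LRP1 KO library 1, -0.11 without library 4, -0.47 (adjusted p = 0.122) with the endothelial markers in the fit and 0.04 with the macrophage markers. The ratio of Bmper to Bmp4 was 0.317 to 0.467 in WT and 0.587 to 1.17 in LRP1 KO, with no overlap. In WT there was thus more Bmp4 than Bmper per length in every library, and in LRP1 KO library 4 there was more Bmper.

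Neither of the other ligands was called. Bmp6 (chr13:38345107-38500302, + strand), known from the liver, where endothelial BMP6 controls hepcidin, was the most even member in WT, with 20.5, 21.1, 20.0 and 21.1 FPKM, and had 24.3, 22.5, 24.9 and 20.4 in LRP1 KO. LRP1 KO libraries 1 to 3 exceeded the WT range and library 4 lay within it. The means were 20.7 ± 0.557 and 23.0 ± 2.02 FPKM. The log2 fold change was 0.14 (SE 0.07, 95% interval -0.01 to 0.30, adjusted p = 0.170 by limma), and without LRP1 KO library 4 it was 0.20 with an adjusted p of 0.0379. With the endothelial or the macrophage markers in the fit, it was 0.00688 or 0.42 (adjusted p = 0.987 and 0.168). Bmp2 (chr2:133552159-133562885, + strand), a close relative of Bmp4, was too low for the fit across genes, with 0.329, 0.211, 0.264 and 0.201 FPKM in WT and 0.587, 0.372, 0.406 and 0.280 in LRP1 KO. LRP1 KO libraries 1 to 3 exceeded WT, but library 4 was below WT library 1. The two-sided exact permutation p was 0.0571, where 0.0286 is the smallest p that 4 against 4 libraries allow. The sum of the 3 ligands was 62.6 ± 3.18 FPKM in WT and 60.3 ± 8.94 in LRP1 KO.

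Bmpr2 (chr1:59763400-59879014, + strand) encodes the type II BMP receptor whose loss is known from hereditary pulmonary arterial hypertension. It varied most among libraries of the same group, with 2.16, 3.22, 8.77 and 5.81 FPKM in WT and 8.12, 3.63, 9.53 and 4.59 in LRP1 KO. High and low libraries were found in both groups, and the log2 fold change of 0.37 (SE 0.37, 95% interval -0.46 to 1.21) did not pass the test (adjusted p = 0.511 by limma). Its longest annotated transcript has 12899 bases. The other 249 tested genes with a transcript of at least 10000 bases moved with it: their median deviation from each gene's mean was -0.11, -0.06, 0.11 and 0.08 on the log2 scale in WT libraries 1 to 4 and 0.07, -0.10, 0.06 and -0.04 in LRP1 KO. Id1 and Id3 belong to the class of genes with transcripts under 1500 bases. Genes of that class other than Id1 had deviations of 0.11, 0.02, -0.07 and -0.03 in WT and 0.01, 0.02, -0.06 and -0.01 in LRP1 KO. When the mean level of the long transcripts other than Bmpr2 and Lrp1 was added to the fit, a choice made after seeing the data, the log2 fold change of Bmpr2 was 0.42 with an adjusted p of 0.0218 by limma, and Id1 (-0.33, adjusted p = 0.0245) and Id3 (-0.47, adjusted p = 0.0203) passed the test as lower. That fit called 24.1% of all tested genes. The estimate of Bmpr2 was -0.01 with the endothelial and 1.26 (adjusted p = 0.444) with the macrophage markers as the added term, and it ran from 0.11 without WT library 1 and 0.18 without LRP1 KO library 3 to 0.57 without LRP1 KO library 2 and 0.65 without WT library 3.

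**Figure D2:**
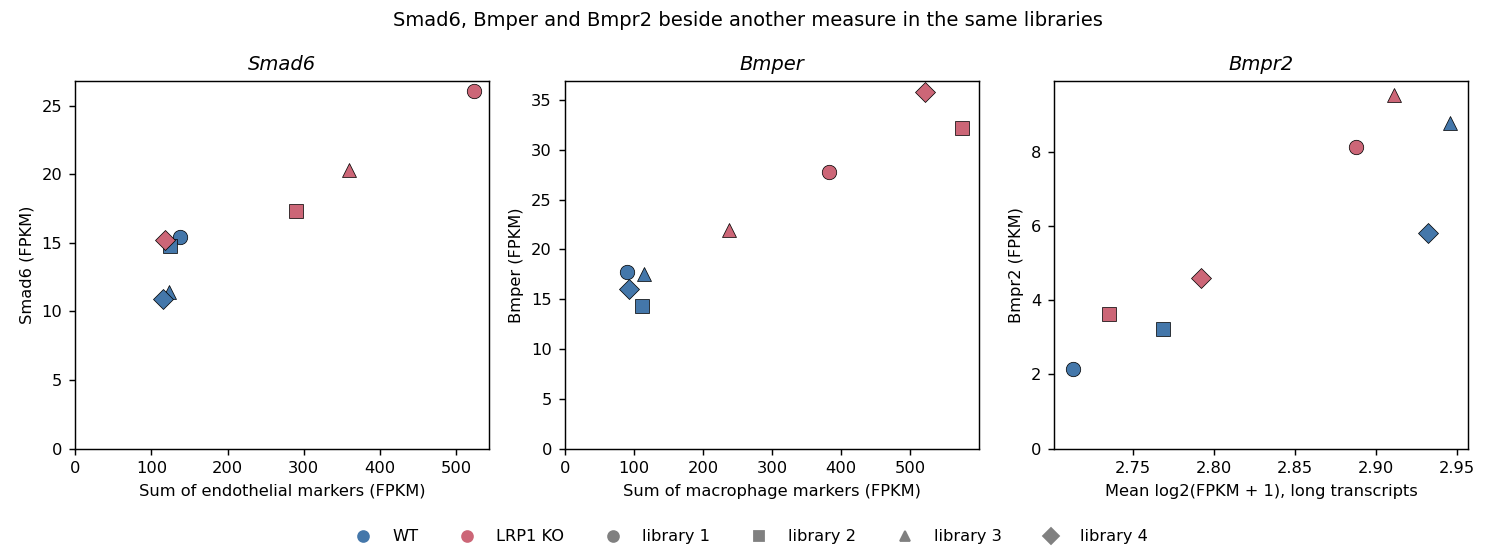
FPKM of Smad6 against the sum of the 16 endothelial markers, of Bmper against the sum of the 12 macrophage markers, and of Bmpr2 against the mean log2(FPKM + 1) of genes with long transcripts (which starts above 0), for the 4 WT (blue) and 4 LRP1 KO (red) libraries. Smad6 has the order of the endothelial sum within each group, and Bmpr2 that of the long transcripts in both groups. Bmper is higher with the macrophage sum between the groups and nearly follows it within LRP1 KO. Within WT Bmper does not follow it: library 1 has the highest Bmper and the lowest sum.

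The estimates of the 3 ID genes did not share a direction. Id1 and Id3 were the most abundant members, with mean levels above those of 95% and 97.1% of the tested genes, and their values in LRP1 KO were mostly lower, whereas Id2 was higher. Id1 (chr2:152736251-152737410, + strand), the ID gene most used as a readout of BMP signaling in endothelium, had 173, 157, 133 and 138 FPKM in WT and 122, 113, 107 and 138 in LRP1 KO. LRP1 KO libraries 1 to 3 were below all WT libraries, and library 4 was level with WT library 4. The mean was 150 ± 18.4 FPKM in WT and 120 ± 13.6 in LRP1 KO (79.7% of WT). The log2 fold change was -0.32 (SE 0.10, 95% interval -0.55 to -0.09), short of the threshold with an adjusted p of 0.0649 by limma, and without LRP1 KO library 4 it was -0.39 with an adjusted p of 0.0192. With the endothelial or the macrophage markers in the fit, it was -0.22 or -0.42 (adjusted p = 0.648 and 0.392).

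Id3 (chr4:136143497-136145755, + strand), whose protein acts together with ID1 in vessel growth, had 281, 328, 242 and 222 FPKM in WT and 185, 187, 170 and 237 in LRP1 KO. Here too LRP1 KO libraries 1 to 3 were below all WT libraries and library 4 was not. The means were 268 ± 46.8 and 195 ± 29.1 FPKM (72.6% of WT), and the log2 fold change was -0.45 (SE 0.13, 95% interval -0.76 to -0.15, adjusted p = 0.0535 by limma). It was -0.55 with an adjusted p of 0.0127 without LRP1 KO library 4 and -0.54 with an adjusted p of 0.0454 without WT library 4. The endothelial markers in the fit gave -0.27 (adjusted p = 0.653) and the macrophage markers -0.82 (adjusted p = 0.193). The ratio of Id1 to Id3 overlapped between the groups, at 0.479 to 0.622 in WT and 0.582 to 0.661 in LRP1 KO.

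Id2 (chr12:25093799-25097140, - strand), which is also a regulator of innate lymphoid and other immune cells, rose. Its values were 28.5, 32.2, 28.1 and 26.8 FPKM in WT and 46.8, 40.2, 40.2 and 41.1 in LRP1 KO. The groups were well apart, and LRP1 KO library 1 was the highest. The mean went from 28.9 ± 2.33 to 42.1 ± 3.20 FPKM (146% of WT), a log2 fold change of 0.53 (SE 0.07, 95% interval 0.36 to 0.69) with an adjusted p of 0.00404 by limma, the smallest of the members. The call was kept without any 1 library. It was lost with the endothelial markers in the fit (0.45, adjusted p = 0.0945) and with the macrophage markers (0.53, adjusted p = 0.170), while the estimate changed little. The ratio of Id2 to Id1 was 0.164 to 0.211 in WT and 0.298 to 0.383 in LRP1 KO. The sum of the 3 ID genes was 447 ± 62.6 FPKM in WT and 357 ± 42.3 in LRP1 KO, with overlap, most of it from Id1 and Id3.

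Both inhibitory SMADs had higher means in LRP1 KO, and the rise of Smad7 passed the test. Smad7 (chr18:75367529-75395935, + strand), which inhibits TGF-beta as well as BMP receptors, had 17.7, 18.7, 19.0 and 17.4 FPKM in WT and 26.7, 24.7, 25.6 and 21.6 in LRP1 KO. The groups did not overlap, and LRP1 KO library 4 was nearest to WT. The means were 18.2 ± 0.782 and 24.6 ± 2.20 FPKM (136% of WT), and the log2 fold change was 0.42 (SE 0.07, 95% interval 0.25 to 0.58, adjusted p = 0.00963 by limma), a call kept without any 1 library. With the endothelial markers in the fit the difference was 0.26 (adjusted p = 0.202), and with the macrophage markers 0.57 (adjusted p = 0.137).

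Smad6 (chr9:63953076-64022059, - strand), which inhibits BMP receptors in the main and is abundant in endothelium, had 15.5, 14.8, 11.4 and 10.9 FPKM in WT and 26.0, 17.3, 20.3 and 15.2 in LRP1 KO. LRP1 KO library 4 was below WT library 1, and the other LRP1 KO values exceeded the WT range. The means were 13.1 ± 2.33 and 19.7 ± 4.69 FPKM (150% of WT). The log2 fold change was 0.54 (SE 0.17, 95% interval 0.17 to 0.91), short of the threshold with an adjusted p of 0.0587 by limma, and without LRP1 KO library 4 it was 0.65 with an adjusted p of 0.0187. Within each group, the libraries had the same order by Smad6 as by the summed endothelial markers. With the mean level of the endothelial markers in the fit, the log2 fold change of Smad6 was 0.15 (adjusted p = 0.801), and with that of the macrophage markers 1.17 (adjusted p = 0.130). Against Id1 the brakes were high in every LRP1 KO library: the ratio of Smad7 to Id1 was 0.102 to 0.142 in WT and 0.157 to 0.240 in LRP1 KO, and that of Smad6 to Id1 0.0788 to 0.0943 and 0.110 to 0.213. These ratios are descriptions with no test.

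**Figure D3:**
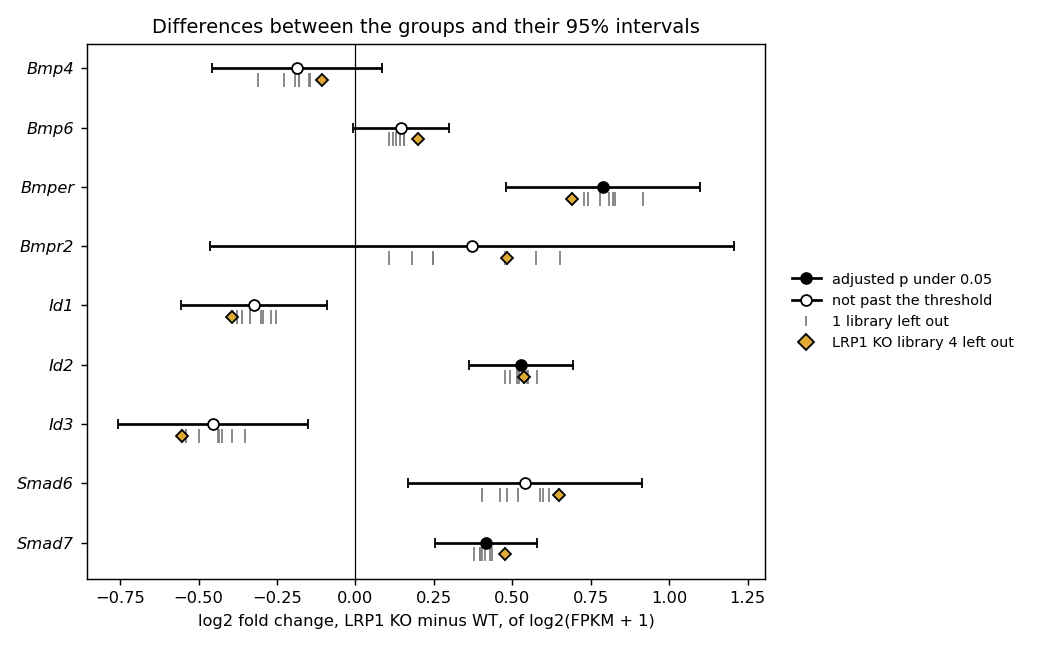
Log2 fold change (LRP1 KO minus WT) of the 9 tested members with its 95% interval, filled where the adjusted p passed the threshold; the marks under each show the estimate with 1 library left out, and the diamond that without LRP1 KO library 4. Bmper, Id2 and Smad7 are filled, and leaving out library 4 moves Id1, Id3 and Smad6 away from 0.

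The promoters of Smad6 and Bmper are shown, since Smad6 is a classical SMAD-driven gene and Bmper had the largest difference. RefSeq windows (GRCm38.p6, 250 bases before to 50 after the start) were at hand for 7 of the 10 members, Bmpr2, Id3, Bmper, Smad6, Id2, Bmp6 and Bmp4. They were searched on both strands for 4 sequences known from SMAD binding: GGCGCC and GGAGCC, the GC-rich sites of SMAD1 and SMAD5; GTCTAGAC, the palindrome bound by SMAD4 and SMAD3; and a spaced element, GNCGNC and then GTCT after any 5 bases, the layout of BMP-responsive enhancers. The lines give the 250 bases before the start, 5′ to 3′ on the gene's strand, with matches in capitals (GGCTCC is GGAGCC on the other strand).
Smad6 (chr9:64022060-64022309, - strand): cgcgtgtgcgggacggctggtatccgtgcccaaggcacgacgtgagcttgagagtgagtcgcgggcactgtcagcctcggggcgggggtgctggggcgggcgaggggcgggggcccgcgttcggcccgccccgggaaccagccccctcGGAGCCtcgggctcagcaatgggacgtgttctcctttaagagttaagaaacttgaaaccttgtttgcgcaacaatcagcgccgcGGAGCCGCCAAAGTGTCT
Bmper (chr9:23222826-23223075, + strand): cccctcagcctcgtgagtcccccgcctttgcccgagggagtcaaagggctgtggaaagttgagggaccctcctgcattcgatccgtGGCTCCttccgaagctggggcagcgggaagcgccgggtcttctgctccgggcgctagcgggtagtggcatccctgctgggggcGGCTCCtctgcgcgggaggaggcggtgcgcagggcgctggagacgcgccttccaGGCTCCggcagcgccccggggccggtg
The Smad6 window held all but GGCGCC. Counted back from the start, GGAGCC lay at bases 102 to 97 and 18 to 13, and the spaced element at bases 15 to 1, overlapping the second GGAGCC and sharing its GTCT with a palindrome that reaches 4 bases past the start, beyond the printed stretch. The palindrome was found in 0.213% of all 32851 windows and in 1 of the 7 members' windows, and the spaced element in 0.667% and in 2, the other being Bmp6. The Bmper window held GGAGCC 3 times and none of the other 3 sequences. GGAGCC occurred in 30.8% of all windows and in 5 of the 7, and GGCGCC in 11.9% and in 2, Bmpr2 and Id2. A match is a description of letters in this window and not of binding.

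Other genes of the pathway were taken from lists by role, written with earlier results of these data known. From these lists 57 genes are reported and 33 were tested. Of the 33, 10 were called higher and 3 lower (39.4%, against 13.6% of all tested genes), and 14 had groups that did not overlap (10 higher and 4 lower). Over all tested genes, the groups did not overlap for 19.6% (8.84% higher and 10.7% lower). Their median log2 fold change was 0.05. Leaving out a library changed these counts, as it changed those over all tested genes, from 714 higher and 833 lower to 223 to 469 and 210 to 520, and to 1387 and 1572 without LRP1 KO library 4. The count of the other pathway genes called higher was 6, 4, 6 and 7 without WT libraries 1 to 4 in turn and 6, 3, 3 and 11 without LRP1 KO libraries 1 to 4, and the count lower 1, 0, 1 and 1 and then 1, 0, 0 and 5. The highest value among the 24 not tested was 1.33 FPKM.

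Among 11 further ligands only Gdf6 was tested. This ligand of joint and skeletal development rose from 30.6 ± 6.84 to 71.8 ± 10.6 FPKM, with 33.1, 22.4, 28.2 and 38.5 in WT and 85.6, 72.0, 69.9 and 59.9 in LRP1 KO (log2 fold change 1.22, SE 0.16, adjusted p = 0.00289 by limma), and the call was kept without any 1 library. It was lost with the endothelial (1.01, adjusted p = 0.0658) or the macrophage markers (1.62, adjusted p = 0.102) in the fit. Its level in LRP1 KO was thus above that of Bmp4 or Bmp6 in each library of that group. Bmp10 and Gdf2, the circulating ligands of ACVRL1, had at most 0.0275 and 0.228 FPKM. Bmp3, named after its values were seen, was lower in every LRP1 KO library than in any WT library, at 0.538 to 1.11 in WT and 0.147 to 0.380 in LRP1 KO. Since it was picked for this, no p is given.

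Of 11 tested extracellular antagonists and modulators, 6 were higher and 2 lower (72.7% called, against 13.6% of all tested genes). Fst, which encodes the activin and BMP antagonist follistatin, rose from 3.72 ± 0.361 to 13.1 ± 6.28 FPKM, with 20.7, 12.8, 13.4 and 5.32 in LRP1 KO (log2 fold change 1.45, adjusted p = 0.0195 by limma). Tll1, a protease of the tolloid family that cleaves chordin, rose from 4.05 ± 1.87 to 12.3 ± 4.84 FPKM (1.39, adjusted p = 0.0279), although its lowest LRP1 KO value, 6.45 in library 4, was barely above the highest WT value, 6.43. Crim1, a membrane protein that binds BMPs, rose with overlap, from 20.6 ± 3.06 to 33.0 ± 8.30 FPKM (0.63, adjusted p = 0.0420). Nbl1, a secreted antagonist of the DAN family, fell from 167 ± 23.2 to 101 ± 21.8 FPKM (-0.73, adjusted p = 0.0169), with library 4 again nearest to WT at 132. The calls of Fst and Nbl1 were lost without WT library 2 or LRP1 KO library 2 or 3, with adjusted p-values of 0.0583 to 0.0618 and 0.0517 to 0.0539 by limma. Tll1 was kept only without WT library 4 or LRP1 KO library 4 (otherwise 0.0568 to 0.0798), and Crim1 only without LRP1 KO library 4 (otherwise 0.0506 to 0.118). The antagonists Grem1 and Chrd (chordin) were not called (0.57, adjusted p = 0.0855, and -0.21, adjusted p = 0.285), but Grem1 was without LRP1 KO library 4 (0.70, adjusted p = 0.0305). The other 4 called were Fstl3 (0.60), Fstl1 (0.40), Bmp1 (0.34) and, lower, Twsg1 (-0.39). Fstl3 and Bmp1 kept their calls without any 1 library, Fstl1 lost its call without WT library 2 or LRP1 KO library 2 or 3 (0.0558 to 0.0582), and Twsg1 kept it only without LRP1 KO library 4 (otherwise 0.0561 to 0.0989).

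With the endothelial markers in the fit, Fstl3 was the 1 modulator still called (0.52, adjusted p = 0.0416 by limma). Fstl1 (0.42, adjusted p = 0.185) and Bmp1 (0.40, not called) kept their size. Fst was then at 0.56 (adjusted p = 0.149), Tll1 at 0.77 (0.533), Crim1 at 0.23 (0.696), Nbl1 at -0.39 (0.350) and Twsg1 at -0.18 (0.605). With the macrophage markers these estimates were larger instead, at 2.48, 2.92, 1.32, -1.34 and -0.63, but none was called, and Bmp1 was at 0.05.

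Of 8 tested receptors and co-receptors, 2 were higher and 1 lower (37.5% called, against 13.6% of all tested genes). Eng, the endothelial co-receptor endoglin, rose from 56.5 ± 5.56 to 114 ± 35.3 FPKM (log2 fold change 0.94, adjusted p = 0.0279 by limma), with 144, 125 and 125 in LRP1 KO libraries 1 to 3 and 63.2 in library 4, whose endothelial marker sum was also at the WT level. Acvrl1, the endothelial type I receptor ALK1, rose from 14.2 ± 1.88 to 20.5 ± 2.25 FPKM (0.51, adjusted p = 0.0200), and here library 4, at 19.4, was well above WT. Rgma, a BMP co-receptor of the repulsive guidance family, fell from 5.03 ± 0.598 to 3.16 ± 0.851 FPKM (-0.55, adjusted p = 0.0328). Of the fits with 1 library left out, Eng and Rgma kept their calls only in that without LRP1 KO library 4, with adjusted p-values of 0.0520 to 0.0810 and 0.0529 to 0.0958 by limma otherwise. Acvrl1 lost its call without LRP1 KO library 2 or 3 (0.0616 and 0.0613). With the endothelial markers in the fit, Eng was at 0.34 (adjusted p = 0.495), Rgma at -0.21 (0.606) and Acvrl1 at 0.55 (0.197), and with the macrophage markers they were at 1.45, -1.12 and 0.23 (0.177, 0.113 and 0.638). The broadly used type I receptors Bmpr1a and Acvr1 were not called (-0.25, adjusted p = 0.320, and 0.05, adjusted p = 0.698).

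Of 10 tested SMADs and brakes, Smurf1, a ubiquitin ligase that marks SMADs and receptors for breakdown, was the only call (12.4 ± 1.29 and 16.0 ± 1.74 FPKM, log2 fold change 0.34, adjusted p = 0.0475 by limma), and its call was kept only without LRP1 KO library 4 (otherwise 0.0550 to 0.135). It was lost with the endothelial markers (0.18, adjusted p = 0.664) or the macrophage markers (0.53, adjusted p = 0.251) in the fit. Smad1 was 10.6 ± 0.811 FPKM in WT and 11.7 ± 0.282 in LRP1 KO, and Smad5 8.63 ± 0.436 and 7.54 ± 0.324, neither past the test (adjusted p = 0.174 and 0.0884) although the groups did not overlap in either. Smurf2, a relative of Smurf1, had a larger estimate than Smurf1 but was not called (19.2 ± 4.31 and 28.1 ± 7.43 FPKM, 0.52, adjusted p = 0.105). Ski, a co-repressor, and Ppm1a, a SMAD phosphatase, were not called (-0.08, adjusted p = 0.322, and 0.06, adjusted p = 0.369). Of the other target genes, 3 of 10 were tested and 0 were called by limma, and also 0 at an unadjusted p under 0.05. Atoh8, a helix-loop-helix target in endothelium and liver, was 24.1 ± 4.54 and 21.3 ± 1.40 FPKM (-0.16, adjusted p = 0.374), and Id4 3.25 ± 0.278 and 3.28 ± 0.492 (0.01, adjusted p = 0.972). Among targets too low for the fit, Hamp, the hepcidin gene, was listed at 0 throughout WT and had 1.14, 0.543, 0.517 and 0.232 FPKM across LRP1 KO libraries 1 to 4. Hey2, a Notch and BMP target, had 0.185 to 0.261 FPKM in WT and 0.283 to 0.777 in LRP1 KO, also without overlap. Both were picked for this after their values were seen, so no p is given. Also named after their values were seen were Smad1, Smad5 and Smurf2.

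**Figure D4:**
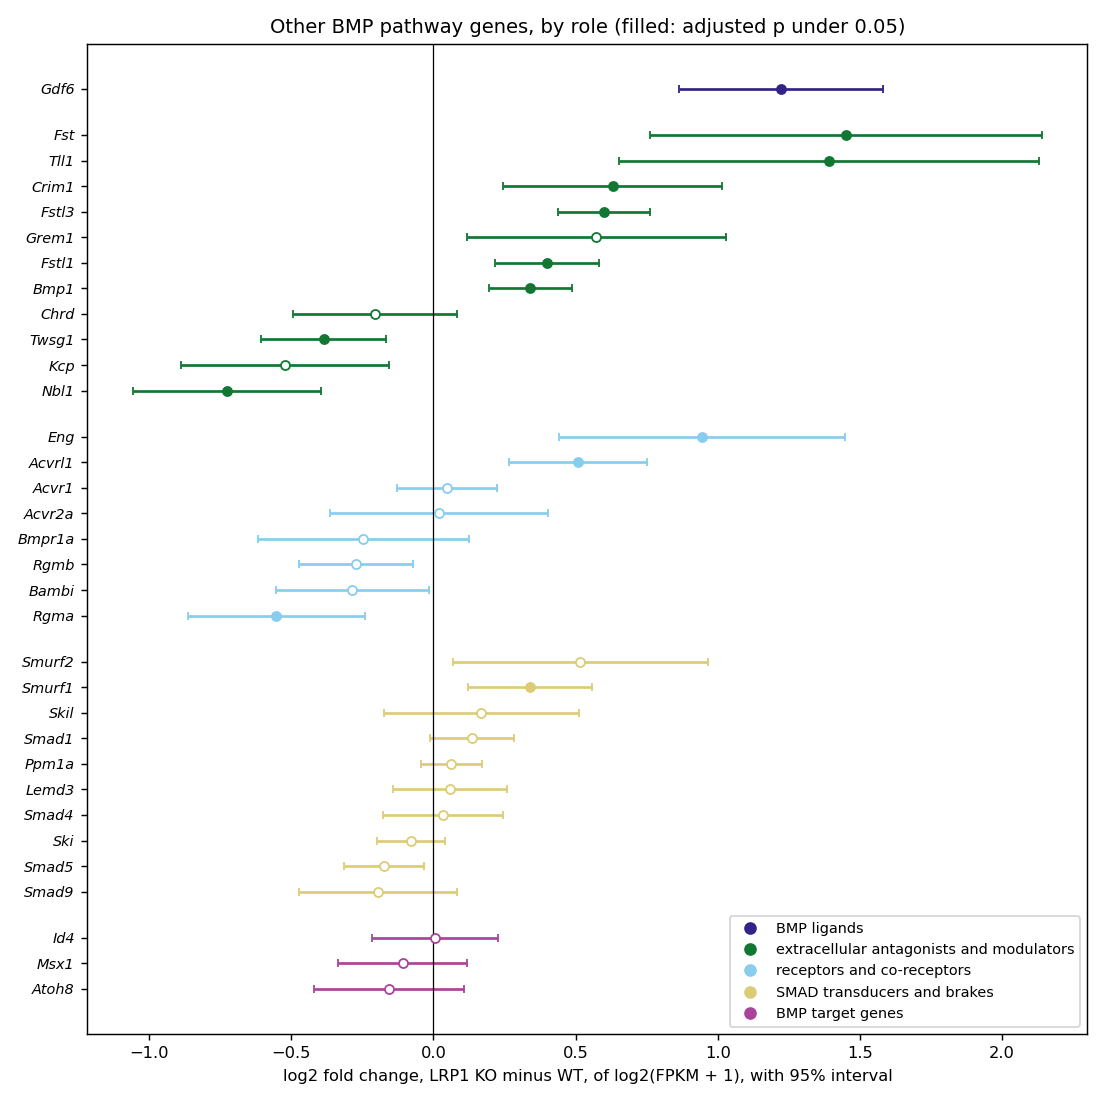
Log2 fold change (LRP1 KO minus WT) of the 33 tested other BMP pathway genes with 95% intervals, grouped and colored by role, filled where the adjusted p passed the threshold. The filled points are spread over both directions among modulators and receptors, and Smurf1 is the only filled point among transducers and targets.

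The tested genes whose profile over the 8 libraries was most like that of 3 members were listed by Pearson r of log2(FPKM + 1), as a description. For Bmper they were Pla2g7 (r = 0.972), Ms4a6c (0.969), Ms4a6d (0.968), Fcgr4 (0.965) and Itgb2 (0.963), which are known from myeloid cells. For Bmp4 they were Ccdc3 (0.964), Chd6 (0.942), Zfp369 (0.909), Pcf11 (0.907) and Pip5k1c (0.902). For Id1 they were Cep70 (0.991), Ndufb9 (0.988), Lrrc1 (0.983), Pard6a (0.979) and Sdr39u1 (0.979), and Ndufb9, a subunit of respiratory complex I, had 119 to 140 FPKM in WT and 104 to 123 in LRP1 KO. The libraries share the group difference, so that any genes that differ alike between the groups correlate.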

How the data were processed

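The deposited table was read as FPKM, a unit inferred from the values because its header names none, and quantile-normalized TPM would look alike. To judge by these values, the authors quantile normalized it across the 8 libraries, since sorted values differ between libraries by a median of 0.576%. The submitters' processing notes name TopHat2, Cufflinks and mm10, whereas the study's methods describe STAR, featureCounts and a count test, which values that are not counts did not allow. Genes with at least 1 FPKM in at least 4 libraries were kept (11389 of 22520), a pseudocount of 1 was added, and limma 3.58.1 (R 4.3.3) was fitted with the group as the only term and a mean-variance trend, tested first on simulated data. Bmp2, below the filter, was tested by exact permutation of the libraries, two-sided (scipy 1.17.1). The members and lists were chosen with earlier results of these data known. The rule named all members, Lrp1, up to 4 called genes with the largest differences and the 2 most abundant uncalled genes per list, and the 5 nearest profiles of 3 members. Genes outside it are stated to have been named after their values were seen, which holds also for the other 4 called modulators, Bmp10 and Gdf2. Groups came from the sample titles. Positions were taken from GENCODE M21. Of the pathway lists, 1 co-receptor was not matched, and 1 gene is not reported here. Replicate numbers, pseudocounts, filters, scaling, left-out libraries and marker levels were varied as alternatives.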

Additional observations from a re-analysis of the deposited data

Results flagged for a closer look

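In 2 of 56 groups of 4 libraries, 1 library lay far from the other 3, where chance gives about 1 in 20. Id2 in LRP1 KO was one: library 1 had 46.8 FPKM, and its gap to the next library took 0.859 of the group's whole range. Acvrl1 in WT was the other: library 1 had 11.3 FPKM, with a gap of 0.931 of the range.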

How the results depend on the processing

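The deposited values have no depth, and 4 libraries per group limit the precision. Bmper, Id2 and Smad7 were called without any 1 library, and in 10, 9 and 9 of 11 other settings. With the endothelial markers in the fit, the members called higher went from 3 to 1, the other pathway genes from 10 higher and 3 lower to 1 and 0, and all genes from 714 and 833 to 141 and 23. With the macrophage markers these became 0, 0 and 0, and 3 and 7. With the long transcripts added, 4 members were higher (Bmpr2 added) and 2 lower, the other pathway genes gave 11 and 4, and all genes 1291 and 1459. With no filter on low values, the other pathway genes gave 7 and 2. The calls of Eng, Tll1, Crim1, Smurf1, Rgma and Twsg1 were lost (adjusted p-values of 0.0603 to 0.0817 by limma). Genes not called in the main fit were added both as higher and as lower. Smurf1 was also lost without a trend (0.0523). Leaving out 1 library gave 3 to 5 members higher and 0 to 2 lower, 3 to 11 and 0 to 5 other pathway genes, and 223 to 1387 and 210 to 1572 genes. The most members were called without LRP1 KO library 4. The cause was not tested. A replicate block gave 4 members higher (Smad6 added, adjusted p = 0.0363 by limma), 7 other pathway genes higher and 2 lower (losing Tll1, Crim1, Smurf1 and Twsg1, with adjusted p-values of 0.0518, 0.0507, 0.0778 and 0.0626), and 493 higher and 520 lower over all genes. Libraries of the same number correlated at 0.158, 0.141, 0.340 and -0.312 in their deviations from the group means. Since number 4 went against the other 3, the numbers were not taken to pair the libraries. The direction turned for Bmp4 (0.039) with the macrophage markers and for Bmpr2 (-0.00605), Acvr1 (-0.0723) and Chrd (0.0453) with the endothelial ones, and without 1 library for Acvr1 (-0.00453 to 0.10) and Id4 (-0.047 to 0.0707). The log2 difference of Bmp2 was 0.17, and 0.52 with a pseudocount of 0.1.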
